A study of Zea mays with 12 samples.

Results

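am1 (ameiotic1) and afd1 (absence of first division1) are the meiosis genes of maize (Zea mays) described here, taken by their symbols as 2 of the 99 genes of a table of embryo RNA. RNA was sequenced from embryos of seeds of 2 inbred lines, Mo17, labelled sensitive to low temperature, and B73, labelled resistant, after 2 h of imbibition in germination paper at 10 °C or at 25 °C, the normal condition. Each of the 4 groups (Mo17 at 10 °C, Mo17 at 25 °C, B73 at 10 °C and B73 at 25 °C) held 3 libraries, described as biological repeats. No transgene, mutant allele or chemical agent is named for any group, and each line is represented by seeds of 1 inbred. Levels are in FPKM, the deposited fragment density scaled to transcript length and library size, in which different genes can be compared.

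Meiosis is the pair of divisions by which a diploid cell forms haploid cells, and in maize it takes place in the anthers and ovules of the flowers, which do not exist yet in a seed embryo. In maize am1 is needed for cells of the germ line to enter meiosis in place of mitosis, and the related protein of Arabidopsis is SWI1, also called DYAD. afd1 encodes the maize form of REC8, a kleisin subunit of the cohesin ring that holds sister chromatids together during meiosis and takes part in building the chromosome axis. Cohesin complexes with other kleisins do the same work in mitotic cells.

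In the coordinates of B73 RefGen_v4, am1 lies on chromosome 5 at 16553338 to 16560267 on the minus strand, a span of 6930 bp, with 1 transcript in the table. afd1 lies on chromosome 6 at 170741792 to 170773503 on the plus strand, a span of 31712 bp, with 6 transcripts listed beside 1 value per library. The table describes am1 as Protein DYAD and gives it GO terms for sister chromatid cohesion in male and female meiosis and for meiotic recombination. Its KEGG column assigns am1 to ribosome biogenesis, a pathway for which am1 is not known. afd1 carries GO terms for the cohesin complex, centromeric cohesion in meiosis and repair of double-strand breaks. Of the 5 distinct GO terms of am1 and the 11 of afd1, 1 is shared, the nucleus. In the later NAM assembly of B73, 0 other genes of the RefSeq table overlap am1 and 0 overlap afd1.

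Relative depth ran from 0.82 to 1.08 over the 12 libraries, and replicates within a group had correlations of 0.969 to 0.997 over the 76 genes that passed the filter on low values (Pearson r of log2(FPKM + 1) taken over genes, which do not replicate each other). B73 10 °C replicate 1 stood apart, at 0.969 and 0.974 with its own replicates, which correlated at 0.997 with each other. So the log2 differences of am1 and afd1 that moved by over 1.5 times with it are given with and without it. For SEs, SDs and p-values only those with it are given, unless another fit is named. Without it, the SE of the am1 line difference at 25 °C was 0.65, against 0.97 with it. Of the markers listed for the tissue, the table holds 1 of 5 for the embryo, 1 of 5 for the endosperm, 1 of 4 for the aleurone and 2 of 5 for meiocytes and anthers, the last being am1 and afd1 themselves. Agpsemzm, named for the embryo form of the small subunit of ADP-glucose pyrophosphorylase, was at 92.9 to 149 FPKM in every library. Among the other tissues, the endosperm marker ae1 was listed at 0 in all 12 libraries, and the aleurone marker a2 stood at 0 to 0.06 FPKM. Second genes named for these markers, ae1_1 at 0.33 to 4.36 FPKM and a2_1 at 38.5 to 107 FPKM, are described below. Absence of these tissues was not tested. The libraries are of bulk embryos, in which fewer cells that make a transcript and less of it per cell cannot be told apart. The genes are placed in coordinates of B73 for both lines. Whether Mo17 RNA was matched to them as fully as B73 RNA was not tested.

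am1, the regulator of entry into meiosis, was higher in Mo17 embryos than in B73 embryos at either temperature. At 10 °C it stood at 9.38, 6.04 and 5.67 FPKM in the Mo17 libraries, against 0, 0.15 and 0.14 FPKM in the B73 libraries. At 25 °C it stood at 5.28, 8.24 and 6.35 FPKM in the Mo17 libraries, against 0, 0.09 and 0.22 FPKM in the B73 libraries. The lowest Mo17 library lay far above the highest B73 library, and 1 B73 library at each temperature was listed at 0. Ranked by FPKM among the 99 genes, am1 took places 48 to 56 in the Mo17 libraries, near the middle of the table, and places 78 to 89 in the B73 libraries. Genes tied at 0 share the best place among them. So in the B73 libraries with am1 at 0, places 81 at 25 °C and 89 at 10 °C mean tied for last.

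**Figure D1:**
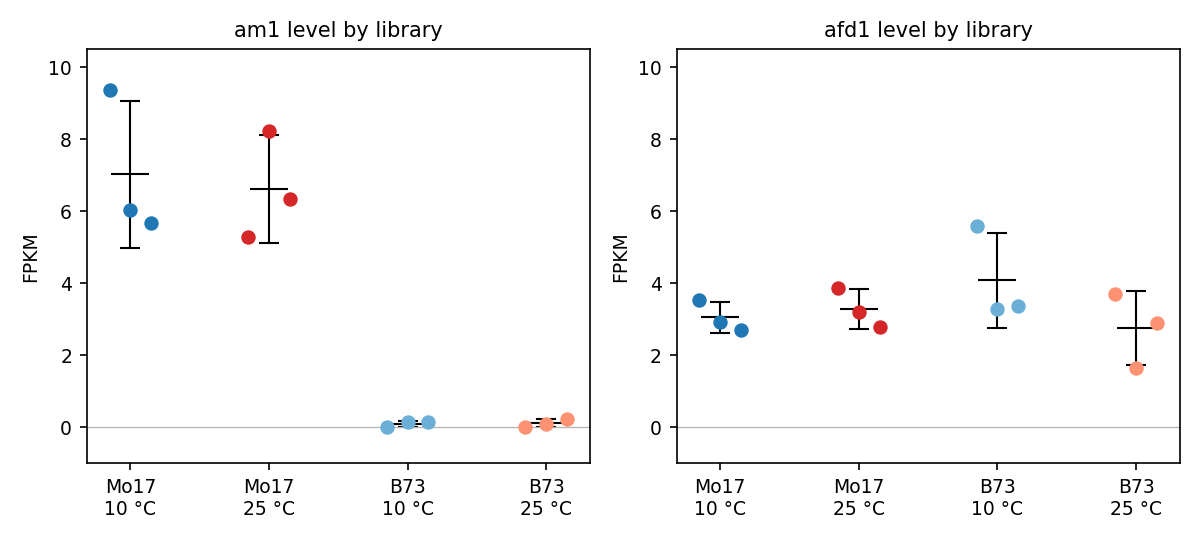
FPKM of am1 (left) and afd1 (right) in each of the 12 libraries, by line and temperature, with points for libraries and lines for the mean and SD of 3. The 6 Mo17 libraries hold am1 at 5.28 to 9.38 FPKM and the 6 B73 libraries at 0 to 0.22 FPKM, while the groups overlap for afd1.

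Mean am1 levels at 10 °C were 7.03 ± 2.04 FPKM in Mo17 and 0.0967 ± 0.0839 FPKM in B73 (SD, n = 3 each), a ratio of 72.7. At 25 °C they were 6.62 ± 1.499 FPKM in Mo17 and 0.103 ± 0.111 FPKM in B73 (SD, n = 3 each), a ratio of 64.1. The log2 difference, Mo17 minus B73, was 6.11 ± 0.97 (SE) at 10 °C, with an adjusted p of 0.000229, and 5.92 ± 0.97 (SE) at 25 °C, with an adjusted p of 0.000276 (edgeR quasi-likelihood test, Benjamini-Hochberg over 76 genes). The 95% intervals ran from 15.8-fold to 309-fold at 10 °C and from 13.9-fold to 266-fold at 25 °C. The difference was larger than the spread between replicates, but its size had wide bounds, and the B73 counts behind it were 0 to 42. The size at 25 °C moved to a log2 difference of 7.14 without B73 25 °C replicate 3, the B73 library with the most am1.

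A test outside the count model gave the same direction. With the lines permuted within each temperature, the mean difference in log2(FPKM + 1) was 2.81 and the exact two-sided permutation p was 0.005, the smallest that the 400 arrangements can give. Differences between the lines were common in the table: 64.5% of the tested genes were called in either direction at 10 °C and 61.8% at 25 °C, and 36.8% were called higher in Mo17 at each temperature. By size am1 had the largest positive log2 difference of the 76 genes at either temperature, and by p it took places 20 and 21 at 10 °C and 25 °C. It passed the filter on low values through its Mo17 libraries alone. Next by size came adh2 at 10 °C, at 6.04 ± 0.77 (SE), and aox1 at 25 °C, at 5.45 ± 0.71 (SE). The gaps to am1 were smaller than these SEs. Libraries of the 2 lines did not overlap, with Mo17 higher, in 35.5% of the tested genes at 10 °C and 40.8% at 25 °C.

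**Figure D2:**
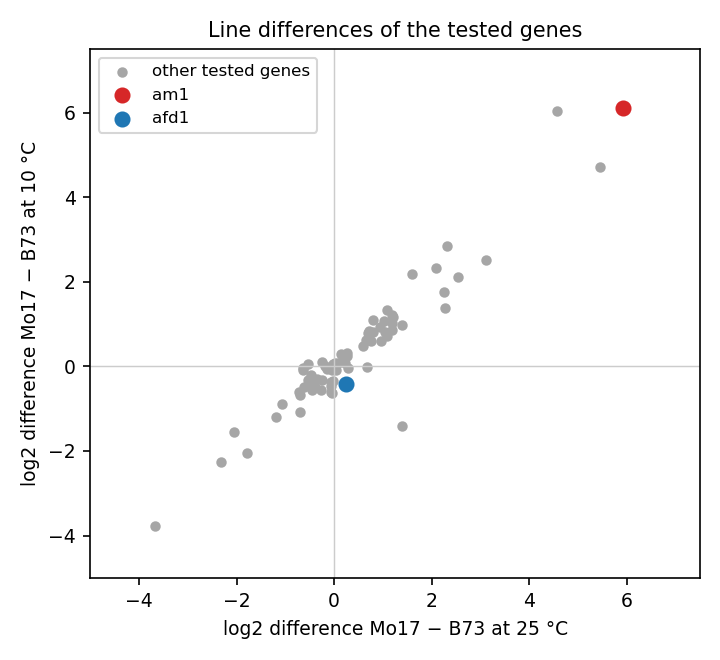
Log2 difference Mo17 minus B73 at 25 °C (horizontal) and at 10 °C (vertical) for the 76 tested genes, with am1 and afd1 marked; the 2 comparisons share no library. am1 lies at 5.92 and 6.11, the upper right end of the genes, and afd1 at 0.25 and -0.42, near the centre.

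Temperature made no detected difference to am1. In Mo17 the mean was 7.03 FPKM at 10 °C and 6.62 FPKM at 25 °C, the libraries of the 2 temperatures overlapped, and the log2 difference was 0.09 ± 0.75 (SE; edgeR quasi-likelihood, adjusted p = 0.959). That standard error borrows its spread from all 12 libraries, including the B73 libraries near 0. Fitted on the 6 Mo17 libraries alone, the difference was 0.09 ± 0.25 (SE), with a 95% interval from 0.703-fold to 1.60-fold. In B73 the log2 difference was -0.11 ± 0.97 (SE; edgeR quasi-likelihood, adjusted p = 0.973), with an interval from 0.21-fold to 4.07-fold. Its sign depended on the library left out, at 1.11 without B73 25 °C replicate 3 and 0.45 without B73 10 °C replicate 1. In Mo17 the sign turned to -0.05 without Mo17 25 °C replicate 1 and to -0.18 without Mo17 10 °C replicate 1. Of all tested genes 1.32% were called with temperature in B73 and 2.63% in Mo17, and neither am1 nor afd1 was among them.

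The ordering of the am1 means was Mo17 at 10 °C, Mo17 at 25 °C, B73 at 25 °C and B73 at 10 °C. The gap within each line was smaller than the SD of either group, and the gap between the lines was larger than any of them. Whether the cold response of am1 differed between the lines was tested as the interaction, at a log2 value of 0.20 ± 1.22 (SE; edgeR quasi-likelihood, adjusted p = 0.988). This estimate also changed sign, to -1.02 without B73 25 °C replicate 3, to -0.36 without B73 10 °C replicate 1 and to -0.07 without Mo17 10 °C replicate 1. With the temperatures permuted within each line, the mean am1 difference, 10 °C minus 25 °C, was 0.03 in log2(FPKM + 1) (exact two-sided permutation p = 0.785), and 0.061 without B73 10 °C replicate 1.

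afd1, the meiotic cohesin subunit, was present at a few FPKM in all 12 libraries and was not called in any comparison. At 10 °C it stood at 3.54, 2.91 and 2.70 FPKM in the Mo17 libraries, against 5.60, 3.28 and 3.36 FPKM in the B73 libraries. At 25 °C it stood at 3.87, 3.2 and 2.78 FPKM in the Mo17 libraries, against 3.70, 1.65 and 2.89 FPKM in the B73 libraries. The lines overlapped at both temperatures, and the highest and the lowest value of the 12 were both in B73. afd1 took places 55 to 67 of the 99 genes by FPKM.

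The log2 difference of afd1, Mo17 minus B73, was -0.42 ± 0.31 (SE) at 10 °C, with an adjusted p of 0.264, and 0.25 ± 0.31 (SE) at 25 °C, with an adjusted p of 0.524 (quasi-likelihood F test in edgeR). The 95% intervals, 0.469-fold to 1.20-fold at 10 °C and 0.745-fold to 1.91-fold at 25 °C, leave room for differences of up to about that size in each direction. The value at 10 °C depended on scaling and on 1 library. It was -0.74 and just past the threshold with TMM factors (edgeR quasi-likelihood, adjusted p = 0.0499), which moved the median of all tested genes from 0.06 to -0.26, and -0.12 without B73 10 °C replicate 1. Relative to that median, the afd1 value was -0.48 with either scaling. At 25 °C the sign turned to -0.0070 with TMM factors and to -0.0073 without B73 25 °C replicate 2. With the lines permuted within each temperature the mean difference was -0.04 in log2(FPKM + 1), at an exact two-sided permutation p of 0.805, and it was 0.063 without B73 10 °C replicate 1.

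With cold, afd1 averaged 4.08 ± 1.32 FPKM at 10 °C and 2.75 ± 1.03 FPKM at 25 °C in B73, and 3.05 ± 0.44 FPKM at 10 °C and 3.28 ± 0.55 FPKM at 25 °C in Mo17 (SD, n = 3 each). The libraries of the 2 temperatures overlapped in both lines. The log2 difference was 0.57 ± 0.31 (SE) in the B73 embryos and -0.10 ± 0.31 (SE) in those of Mo17, with adjusted p of 0.562 and 0.959 (quasi-likelihood F test in edgeR). The B73 value was 0.27 without B73 10 °C replicate 1 and 0.31 without B73 25 °C replicate 2. In Mo17 the sign turned, to 0.03, without Mo17 25 °C replicate 1. The interaction was -0.67 ± 0.43 (SE) on the log2 scale and was not called (edgeR quasi-likelihood, adjusted p = 0.734). Its value was -0.37 without B73 10 °C replicate 1 and -0.41 without B73 25 °C replicate 2. No gene passed the interaction test (0% of 76, edgeR quasi-likelihood), where 6 genes had an unadjusted p below 0.05, and DESeq2 and limma called 0 as well. Permuting the temperatures within each line gave a mean afd1 difference of 0.19 in log2(FPKM + 1), with an exact two-sided permutation p of 0.405. That mean was 0.083 without B73 10 °C replicate 1 and 0.070 without B73 25 °C replicate 2.

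**Figure D3:**
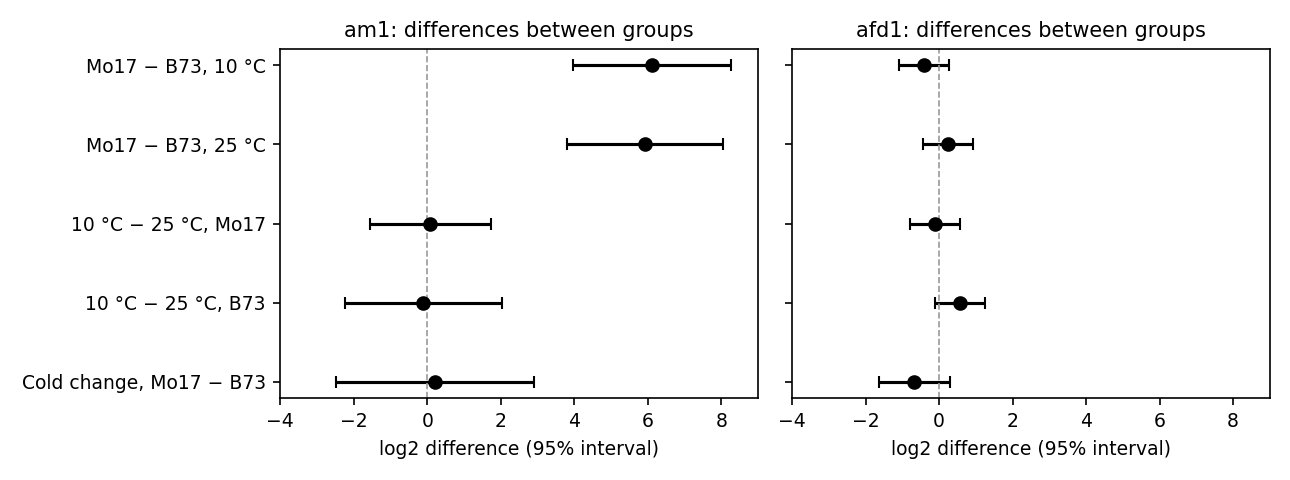
Log2 differences of am1 (left) and afd1 (right) in the 5 comparisons, with 95% intervals from the edgeR fit of all 12 libraries; the dashed line marks 0. The am1 intervals between the lines lie wholly above 0, while its other intervals and all 5 of afd1 include 0.

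In order of the means, afd1 was highest in B73 at 10 °C, then in Mo17 at 25 °C, Mo17 at 10 °C and B73 at 25 °C, and neighbouring groups in this order differed by less than the larger of their SDs.

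The balance between the genes was opposite in the lines. Per unit of transcript length, am1 exceeded afd1 in 6 of 6 Mo17 libraries, with a ratio of am1 to afd1 FPKM of 1.36 to 2.65 (median 2.19). In B73 it lay below afd1 in all 6 libraries, with a ratio of 0 to 0.0761 (median 0.0437). The Mo17 and B73 ranges did not overlap, and this ratio contains the am1 difference described above. Within Mo17 the ratio was 2.65, 2.08 and 2.10 at 10 °C, against 1.36, 2.58 and 2.28 at 25 °C, and the temperatures overlapped.

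**Figure D4:**
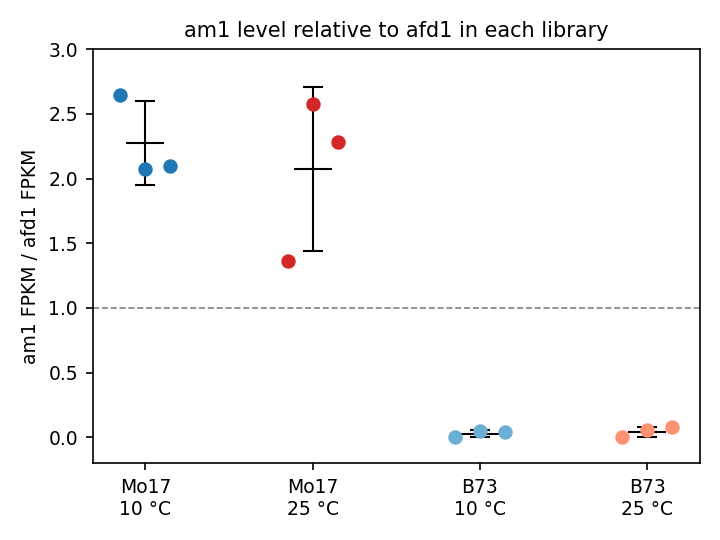
Ratio of am1 to afd1 FPKM in each of the 12 libraries, by line and temperature, with the mean and SD of 3 libraries per group; the dashed line marks equal levels. All 6 Mo17 libraries lie above 1, at 1.36 to 2.65, and all 6 B73 libraries below it, at 0 to 0.0761.

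Other genes of the table with GO terms or descriptions for meiosis, cohesion or recombination were few. The list held 3 genes, am1, afd1 and ANAC044, and am1 was the 1 of the 2 tested that passed, higher in Mo17 at each temperature, beside 36.8% called higher over all tested genes. ANAC044, a NAC domain transcription factor annotated to the regulation of meiotic nuclear division and to a DNA damage checkpoint, failed the filter on low values. It stood at 0.56, 0.95 and 1.97 FPKM in Mo17 against 0.28, 0.21 and 0.05 FPKM in B73 at 10 °C. At 25 °C it stood at 0.54, 0.27 and 1.08 FPKM in Mo17 against 0, 0.46 and 0.19 FPKM in B73, where the lines overlapped.

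The list for the cell cycle and cell division held 5 genes, of which 4 were tested: afd1, the actins act1 and act2, which form the cytoskeleton, and AI987507, an INDETERMINATE-related transcription factor annotated to asymmetric cell division. Between the lines 1 of the 4 was called higher and 1 lower in Mo17 at either temperature, and the median log2 difference of the 4 was -0.23 at 10 °C and -0.0066 at 25 °C, beside 0.06 and 0.17 over all 76 genes. Over all tested genes 64.5% were called in either direction at 10 °C and 61.8% at 25 °C, so these 2 calls of 4 are no result about the list. The gene called higher was act1, at 333 ± 22.7 FPKM in Mo17 and 149 ± 3.55 FPKM in B73 at 10 °C (SD, n = 3 each), and the gene called lower was act2, at 26.4 ± 2.03 FPKM in Mo17 and 38.7 ± 3.69 FPKM in B73. Both kept their direction and call with TMM and with median-ratio factors. With temperature none of the 4 passed in either line. The remaining member, acs7, an enzyme of ethylene synthesis, did not exceed 0.09 FPKM.

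The genes whose levels followed am1 most closely over the 12 libraries, by Pearson r of log2(FPKM + 1), were AI714808, a protein phosphatase methylesterase (r = 0.991), act1 (0.987) and AGA1, an alkaline alpha-galactosidase of raffinose breakdown (0.982). These values describe the split between the lines, since the 12 libraries fall into 2 clusters. Over the 6 Mo17 libraries alone, r with am1 was 0.78 for AI714808, 0.47 for act1 and 0.33 for AGA1, and over the 6 B73 libraries it was 0.65, -0.31 and 0.83. All 3 genes are far more abundant than am1, at 444 to 558 FPKM in Mo17 and 230 to 280 FPKM in B73 for AGA1, and their log2 differences, Mo17 minus B73, of 1.02 to 1.22 were smaller than that of am1. AI714808, for example, differed by 1.21 ± 0.08 (SE) at 10 °C and 1.18 ± 0.08 (SE) at 25 °C.

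A second gene named for the endosperm starch branching enzyme, ae1_1, was called higher in Mo17 at each temperature, beside 36.8% of all tested genes. It stood at 2.30 to 4.36 FPKM in the 6 Mo17 libraries and 0.33 to 0.70 FPKM in the 6 B73 libraries, while ae1 itself was listed at 0 in every library and the other 4 endosperm markers of the list were not analysed here. A second gene named for the aleurone marker, a2_1, is described in the table as unknown, with GO terms for the extracellular region, the membrane and the transfer of glycosyl groups. At 10 °C it stood at 38.5 to 46.0 FPKM in Mo17 and 41.6 to 44.5 FPKM in B73, and at 25 °C at 54.9 to 107 FPKM in Mo17 and 43.4 to 59.5 FPKM in B73. Its log2 difference, Mo17 minus B73, was -0.0044 ± 0.20 (SE) at 10 °C and 0.68 ± 0.20 (SE) at 25 °C (edgeR quasi-likelihood test, adjusted p = 0.983 at 10 °C and 0.0112 at 25 °C), while its libraries overlapped at both temperatures. In Mo17 it was lower at 10 °C than at 25 °C, at -0.94 ± 0.20 (SE; edgeR quasi-likelihood, adjusted p = 0.0257). The part of other seed tissue in the am1 difference was not tested.

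The genes closest to afd1 were aprl1 (r = 0.648) and aprl2 (r = 0.439), both named as adenosine 5'-phosphosulfate reductase-like, and AGP2, annotated as a large subunit of ADP-glucose pyrophosphorylase (r = 0.628). In B73 10 °C replicate 1 afd1 was at 5.60 FPKM, aprl1 at 29.4 FPKM and aprl2 at 37.4 FPKM, the highest value of the 12 libraries for each. Without that library r with afd1 was 0.195 for aprl1, -0.387 for aprl2 and 0.592 for AGP2. Without the 2 libraries farthest from the afd1 median it was -0.06 for aprl1, -0.47 for aprl2 and -0.04 for AGP2. Over the 6 Mo17 libraries alone r with afd1 was 0.88 for aprl1, -0.15 for aprl2 and 0.29 for AGP2, and over the 6 B73 libraries it was 0.68, 0.49 and 0.92.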

How the data were processed

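The data are 1 table of 99 genes. Per the file headers, each gene has for every library a count and an FPKM value, both computed by the authors before they deposited the table. Cutadapt 1.9, HISAT2 2.0.4, StringTie 1.3.4d, edgeR, DESeq2 and B73 RefGen_v4 appear in the submitters' processing notes without a stated role, and strand-specific counting is not stated. The deposited counts are whole, but values of 1 and 2 are missing, 3 is the lowest nonzero value and 4 is found 19 times. So 1 fragment appears to be worth several counts, and counting limits that need true fragment numbers were left out. The edgeR SEs and intervals were computed from the deposited counts and can depend on their scale. With counts divided by 4, the SE of the am1 line difference was 0.66 at each temperature, against 0.97. That of afd1 was 0.30 at each temperature, against 0.31. The ratio of count to FPKM in 48 genes at 5 FPKM or more in every library gave the relative depth to within 0.374%, while absolute depth is unknown.

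Counts were tested with edgeR 4.0.16 in R 4.3.3, using library sizes set by relative depth and no TMM factors, since the table is small. A model of 4 group means covered 12 libraries and the 76 genes that reached 1 FPKM in 3 or more libraries, am1 and afd1 among them. am1 passed this filter through its Mo17 libraries alone, at 5.28 to 9.38 FPKM, while the B73 libraries held 0 to 0.22 FPKM. With no filter the am1 line difference was 6.11 at 10 °C and 5.92 at 25 °C. Tests were 2-sided, with Benjamini-Hochberg adjustment over 76 genes and a threshold of 0.05. Log2 differences carry edgeR's default prior count. Standard errors were the log2 difference refitted with no prior count over the square root of F, and 95% intervals were built on that refit. Permutation tests used log2(FPKM + 1). The edgeR p-values set a difference against the spread between biological replicates, pooled over the 12 libraries and moderated across the 76 genes. The permutation p-values come from the rearranged labels. The edgeR and permutation procedures were run on simulated data as a check of the code. The simulated counts had fewer changed genes than were called between the lines, and smaller differences than that of am1. So they do not show how the edgeR test behaves for am1. Alternatives were no filter, TMM and median-ratio scaling, limma 3.58.1, DESeq2 1.42.0, counts divided by 4, a replicate block, fits of 6 libraries and each library left out. The genes and lists were chosen with earlier results of these data known. The text names both genes, the 3 genes most like each, and members of the meiosis, cell cycle and marker lists, while ae1_1 and a2_1 were added after their values were seen. Chromosome numbers are those of the matching transcripts in the RefSeq gene table of Zm-B73-REFERENCE-NAM-5.0, whose coordinates were not used.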

Additional observations from a re-analysis of the deposited data

How the results depend on the processing

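The am1 difference between the lines kept its direction and its call under all 21 alternatives at each temperature, with log2 values of 2.85 to 6.59 at 10 °C and 2.78 to 7.14 at 25 °C. The lowest came from limma on log2(FPKM + 1), a scale on which low genes differ less. Adjusted p ran from 2.99e-07 to 0.00167 at 10 °C and from 3.90e-07 to 0.00274 at 25 °C. Of 260 alternative values of am1 and afd1, 243 kept direction and call, many by staying uncalled. These and the 21 include fits without a library outside the comparison, which hardly moved it. Of 104 counts of genes called, 81 stayed within 1.5 times the main count. With TMM factors afd1, Mo17 minus B73, was -0.0070 at 25 °C and -0.74 at 10 °C. The latter passed the threshold (edgeR quasi-likelihood, adjusted p = 0.0499, range over alternatives 0.0499 to 0.808). These factors moved the median of all tested genes at 25 °C from 0.17 to -0.09.

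With 1 library left out at a time, afd1 at 25 °C ran from -0.0073 to 0.53 between the lines, and its cold response in Mo17 from -0.22 to 0.031, and its interaction from -0.94 to -0.37. The cold response of am1 ran from -0.65 to 1.11 in B73 and from -0.18 to 0.27 in Mo17, and its interaction from -1.02 to 0.74. On log2(FPKM + 1) the mean cold difference of am1 ran from -0.071 to 0.10 the mean line difference of afd1 from -0.15 to 0.063, and its mean cold difference from 0.070 to 0.28. None of these was called with any library left out.

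Genes called with cold in B73 numbered 1, against 0 with TMM or median-ratio factors, 2 with DESeq2, the replicate block or the 6 libraries compared, and 0 to 2 with a library left out. In Mo17 they numbered 2, against 4 with median-ratio factors, 9 with DESeq2, 1 with the replicate block, 0 with the 6 libraries compared and 0 to 5 with a library left out. am1 and afd1 were never among them. The cause of these shifts was not tested.

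Replicate numbers showed no pairing of the libraries over the tested genes together. Deviations of same-numbered libraries correlated at -0.43 to 0.44, and 4 of 18 pairs exceeded 0.1. Differently numbered ones correlated at -0.49 to 0.47, and 11 of 36 exceeded 0.1. For afd1 itself, replicate 1 was the highest library in every group. It stood at 5.60 and 3.54 FPKM in B73 and Mo17 at 10 °C, and 3.70 and 3.87 at 25 °C. Pairing for single genes was not tested, but the replicate block allows for it. With it the am1 line difference was 6.42 at 10 °C and 6.10 at 25 °C. That of afd1 was -0.38 and 0.29, and no call of either gene changed. Absolute depth is unknown, and am1 in B73 lay near the lowest values of the table.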
